A study of Mus musculus with 8 samples.

Results

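The genes described are the chaperone and heat shock genes on the array, taken by name: probes of genes whose symbol starts with *Hspa*, *Hspb*, *Hsp90*, *Dnaja*, *Dnajb* or *Dnajc*, or with *Cct* and a digit, together with *Hspd1*, *Hspe1*, *Hsph1* and *Tcp1*. They number 83 of the 35526 genes with a usable probe. Where the array holds several probes of a gene, the one with the highest mean signal over the 8 arrays stands for it. They fell into 13 Hsp70 and Hsp110 genes, 3 Hsp90 genes, 8 small heat shock genes, 45 J-domain genes, 10 genes of the cytosolic chaperonin, the 2 genes of the mitochondrial chaperonin and 2 partner genes that share only the letters Hspb. The measurements came from single endocardium cells, the inner lining of the heart, of mouse embryos at E8.5 with 9 somites, with 1 cell on each array. All 8 cells came from embryos with both *Sox17* alleles floxed. In the 4 WT cells *Mesp1* was intact (Mesp1+/+), so that no Cre was present, and in the 4 KO cells 1 *Mesp1* allele carried Cre (Mesp1Cre/+), which removes *Sox17* in the mesoderm that expresses *Mesp1*. No label names the embryo that a cell came from, so that a genotype counts as 1 sample. Differences are therefore set against the SD between cells, with no p-value.

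Molecular chaperones hold or refold proteins. Hsp70 binds exposed hydrophobic stretches in a cycle of ATP hydrolysis that J-domain proteins start and nucleotide exchange factors such as Hsp110 reset, Hsp90 acts later on kinases, receptors and other clients, small heat shock proteins hold unfolded proteins without ATP, and chaperonins enclose them in a chamber. Some members are made in every cell, while others are raised by the heat shock factor HSF1 after stress or, in the endoplasmic reticulum (ER), by the unfolded protein response.

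Values are intensities scaled between arrays, with a floor at 5.64 on the log2 scale. Levels of different genes come from different probes and are not compared. The number of probes well above background, which stands for the depth of an array, ran from 11370 in WT cell 1 to 18175 in WT cell 4. Both *Sox17* probes were well above background in 0 of 8 cells, WT cells included, and so do not check the genotypes. Endothelial markers were well above background for 6 to 10 of 10 genes in each cell, cardiomyocyte markers for 3 to 7 of 9, smooth muscle markers for 2 of 3, blood markers for 0 or 1 of 5 and endoderm markers for 0 of 5. The summed scaled level of the cardiomyocyte list spanned 8.32 to 15.06 in WT cells and 9.97 to 15.58 in KO cells (log2), and its part in the values below was not tested. All arrays lay on 1 slide with the genotypes in separate columns, and the effects of place and genotype cannot be told apart.

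A larger share of chaperone genes than of all genes was detected in every cell, and their median SD between cells was larger. Of the 83 genes, 59 stood well above background (detected, in what follows) in 1 cell or more and 24 in none. All 8 cells showed 22 of them, or 26.5%, against 17.6% of all genes. WT cells 1 to 4 showed 28, 46, 40 and 43 of the 83 genes and KO cells 1 to 4 showed 39, 31, 42 and 44, so that the counts of the genotypes overlapped. The lowest count belonged to WT cell 1, which also had the fewest detected genes of any kind, 9065. The median SD between cells within a genotype was 1.73 on the log2 scale over the 59 detected chaperone genes and 0.72 over all 20270 detected genes. Among genes above the floor in every cell the medians were 1.62 for 17 chaperone genes and 0.82 for 3448 genes.

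**Figure D1:**
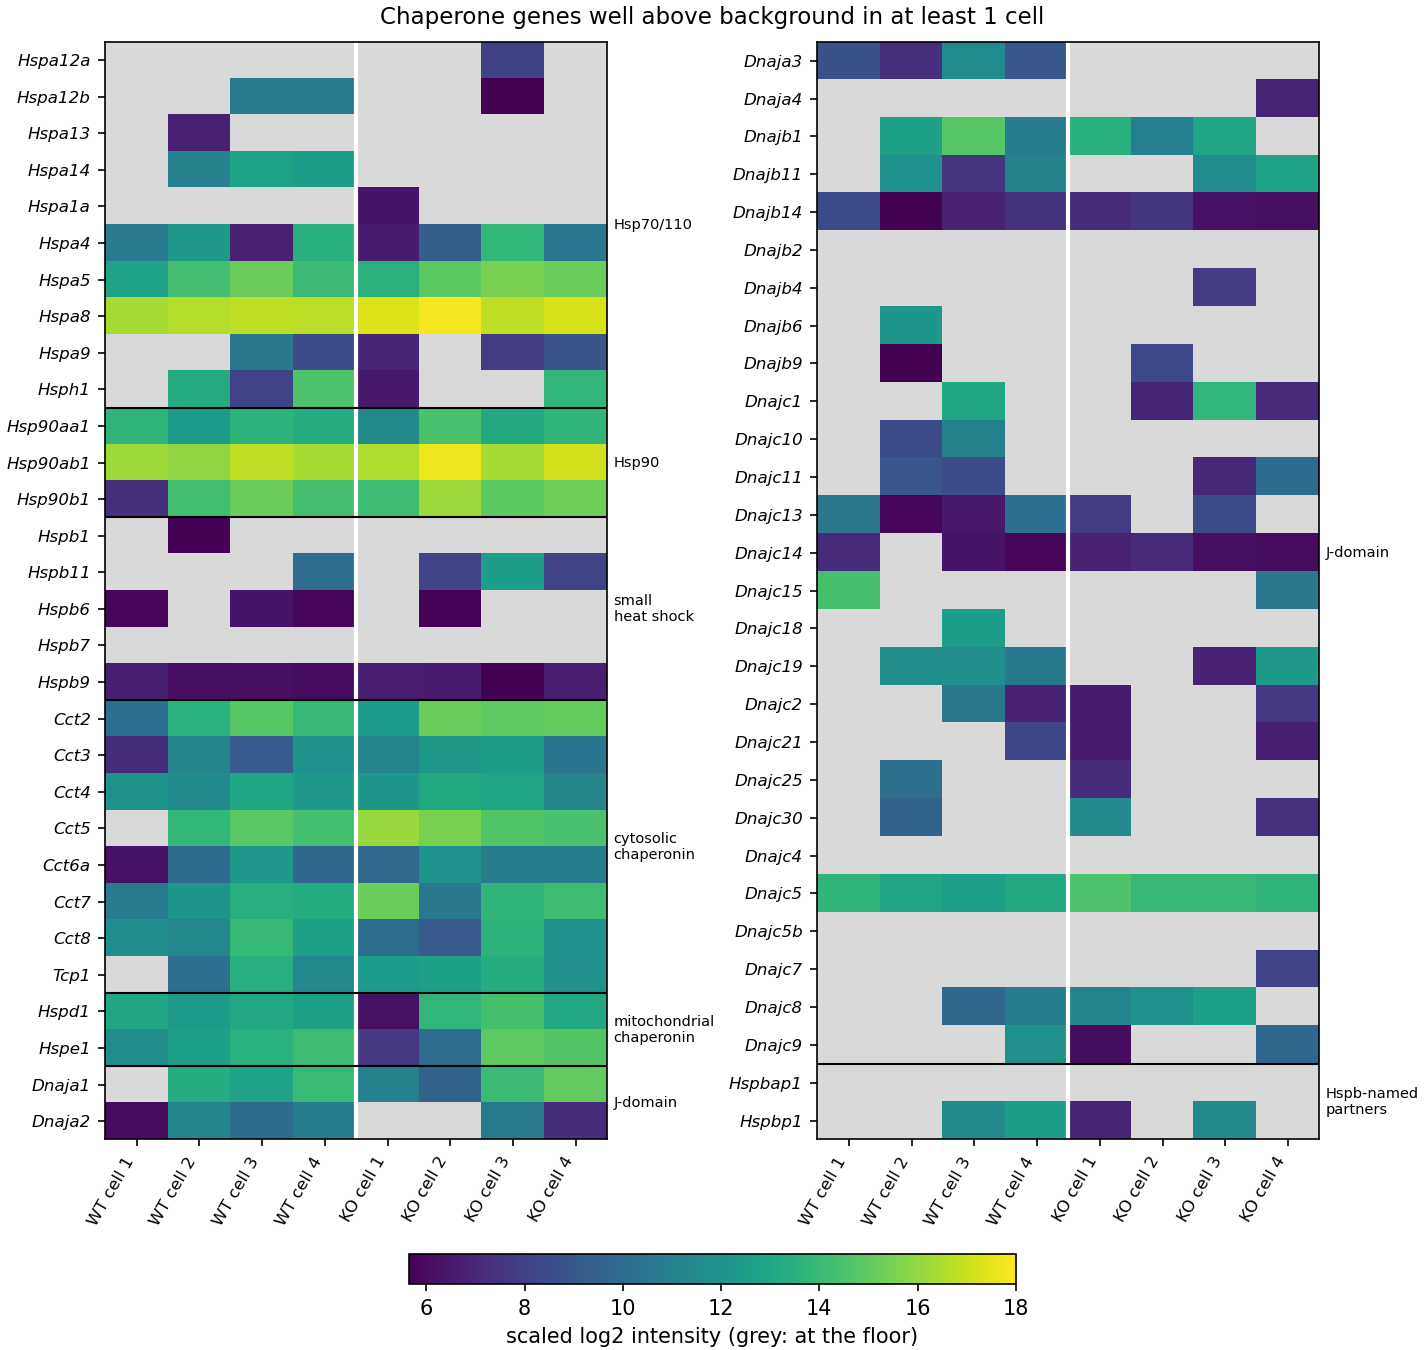
Scaled log2 intensity of the 59 chaperone genes detected in any cell, with a row per gene, a column per cell and black lines between families; grey marks values at the floor, and colours are comparable along a row only. *Hspa8*, *Hsp90ab1* and *Dnajc5* are far above the floor in all 8 cells, 5 of the 8 cytosolic chaperonin subunits are dimmest in WT cell 1, and most J-domain genes are at the floor in most cells.

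Over the 59 detected genes the median difference between genotypes (KO minus WT, of mean log2 values) was 0.00, as it was over all detected genes, with 25 chaperone genes higher in KO cells, 29 lower and 5 at the floor in every cell. At least 5-fold higher in KO cells were 4 genes (6.78%), beside 3.23% of all detected genes. They were *Cct5*, *Tcp1*, *Dnajc8* and *Hsp90b1*. At least 5-fold lower were 5 genes (8.47%), beside 3.27% of all detected genes. They were *Hspa14*, *Dnaja3*, *Hspa12b*, *Hsph1* and *Dnajc19*. Genes that lie at the floor in every cell cannot reach 5-fold. Among the genes above the floor in at least 1 cell the shares were 7.41% of 54 chaperone genes beside 4.5% of all genes for the higher ones, and 9.26% beside 4.55% for the lower ones. The higher calls depended on the scaling and on 1 cell. Under each of 4 other scalings and under another background correction the split was 1 higher and 3 to 6 lower in place of 4 and 5, and without WT cell 1 it was 0 higher and 8 lower.

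For 2 genes the values of WT and KO cells did not overlap. Every KO cell was above every WT cell for *Hspa8* (1.69% of detected chaperone genes, beside 1.13% of all detected genes), and every WT cell was above every KO cell for *Dnaja3* (1.69%, beside 0.252%). Among genes above the floor in all 8 cells, the median difference over all genes was 0.27 with the scaling used here and between -0.12 and 0.22 with the others, so that small differences carry the choice of scaling.

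**Figure D2:**
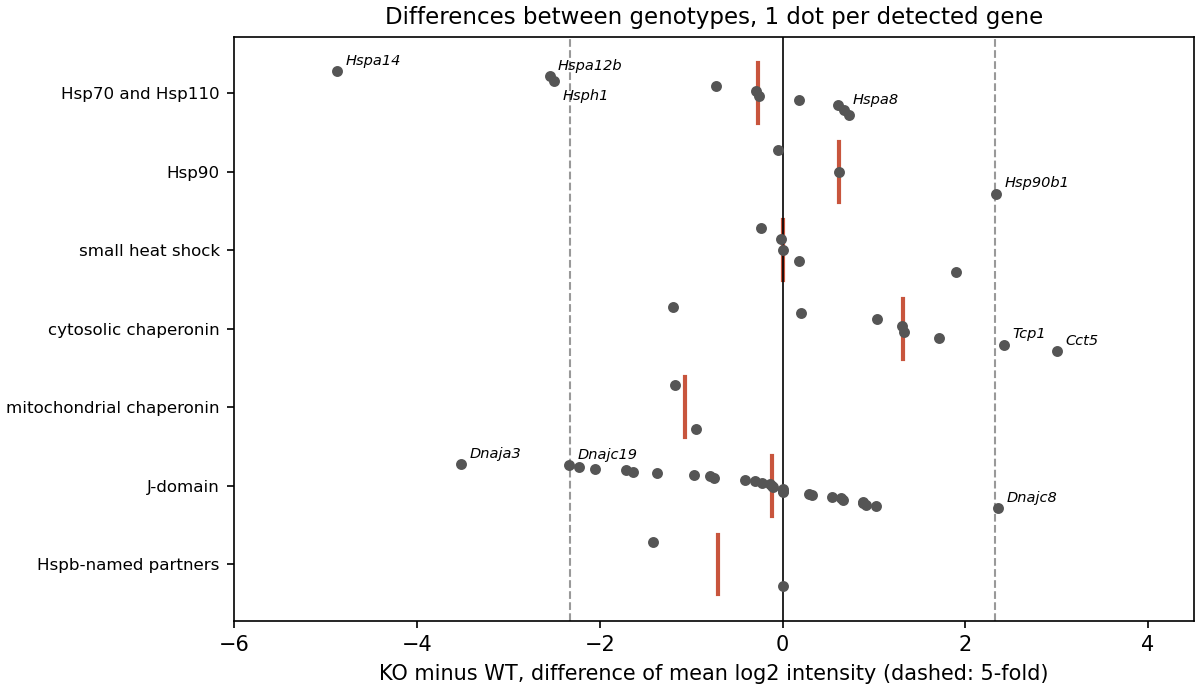
Difference of mean log2 intensity, KO minus WT, for each detected chaperone gene (dot) by family, with the family median in red and dashed lines at 5-fold; genes past 5-fold and genes whose genotypes do not overlap are named. Dots of the cytosolic chaperonin lie mostly to the right, with a median of 1.32, those of the mitochondrial chaperonin to the left, and the J-domain genes spread to both sides.

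The cytosolic Hsp70 and Hsp90 that cells make without stress were present in every cell and varied little. *Hspa8* encodes Hsc70, the constitutive cytosolic Hsp70. WT cells 1 to 4 read 16.40, 16.63, 16.80 and 16.75 for *Hspa8*, and KO cells 1 to 4 read 17.35, 17.84, 16.84 and 17.26. All KO cells lay above all WT cells (KO cell 3 narrowly), and the difference of 0.68 was above the SD between cells of 0.32. Of the 3 *Hspa8* probes, a second differed by 0.67 and the third by -1.60, with an SD of 1.41, and their mean gave -0.09. The array annotation places the chosen probe on chromosome 5, while RefSeq has the gene on chromosome 9. Transcripts of the gene and of a copy elsewhere therefore cannot be told apart. With quantile normalization the difference was 0.01, and the genotypes overlapped under all 4 other scalings, though not with normexp background correction.

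*Hsp90ab1*, the constitutive Hsp90, read 16.23, 15.93, 16.80 and 16.37 in WT cells 1 to 4. KO cells 1 to 4 read 16.55, 17.69, 16.38 and 17.18, which overlapped with WT cells, for a difference of 0.62 (SD 0.50), or -0.02 with quantile normalization. Over the 8 cells *Hspa8* and *Hsp90ab1* had a Pearson r of 0.85 and a Spearman rho of 0.86, where both genes of a cell share 1 scaling factor. The inducible *Hsp90aa1* read 13.67, 12.44, 13.63 and 13.30 in WT cells and 11.46, 14.48, 13.17 and 13.74 in KO cells. Its difference of -0.05 was far within the SD of 0.99, and KO cells held both its lowest and its highest value.

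The inducible Hsp70 and the best-known small heat shock gene were at or near the floor. *Hspa1a* encodes the strongly inducible Hsp70, and its probe also carries the accession of its twin *Hspa1b*, which has no probe of its own. It was at the floor in 7 of 8 cells and read 6.36 in KO cell 1, the 1 cell in which it was well above background. *Hspb1*, which encodes the small heat shock protein Hsp25, was at the floor in all cells other than WT cell 2, at 5.72. The transcription factor genes *Hsf1* and *Hsf2* were well above background in 2 cells and in 0 cells.

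*Dnajb1*, the inducible J-domain partner of Hsp70, was by contrast bright in most cells. Its values were 5.64, 12.71, 14.72 and 10.83 across WT cells 1 to 4, against 13.49, 10.96, 12.93 and 5.64 in KO cells 1 to 4. One cell of each genotype lay at the floor, and the difference of -0.22 was small beside the SD of 3.74. *Hsph1*, an inducible Hsp110 that exchanges the nucleotide of Hsp70, read 5.64, 13.26, 8.15 and 14.57 in WT cells and 6.56, 5.64, 5.64 and 13.78 in KO cells. Its difference of -2.50 (SD 4.08) ranged from -4.46 to -1.11 when any 1 cell was left out, and it was under 5-fold without WT cell 2, WT cell 4, KO cell 1, KO cell 2 or KO cell 3. A second *Hsph1* probe pointed the same way.

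Over the 9 stress-inducible members on the array, which also take in *Hspa8*, *Hspd1* and *Hspe1*, the median difference was -0.05, with 3 higher and 6 lower in KO cells. The immediate early genes, which respond within minutes to handling as well as to growth signals, were detected for 1, 2, 4 and 4 of 11 genes across WT cells 1 to 4, against 2, 2, 1 and 5 across KO cells 1 to 4. *Fos* and *Egr1* were well above background in no cell. *Atf3* read 13.37 in KO cell 2 and 10.85 in KO cell 4 and lay at the floor in the other 6 cells. Its difference of 3.23 (SD 2.74) was 1.73 without KO cell 2 and 4.31 without KO cell 1 or KO cell 3. The part of the dissociation in any of these values was not tested. The sample labels give 5 min of trypsin and the study's methods 3 min.

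Heat shock elements lay at a larger share of the gene starts of the family than of all genes. In windows from 250 bases before to 50 after the RefSeq start (assembly GRCm38.p6), 68 members had 87 windows. The heat shock element, which HSF1 binds, was searched on both strands as GAANNTTC, and it was found in 17 member windows (19.5%) beside 7.86% of all 32851 windows. With 1 unit more, GAANNTTCNNGAA, it was found in 6 (6.90%) beside 0.603%, at *Dnajb6*, *Hspd1*, *Hspe1* and *Hsph1*. Windows can overlap, so that 1 site can count more than once and the shares are not of separate sites. Both *Dnajb6* windows held the same element, and *Hspd1* and *Hspe1* share theirs. A longer match always holds the shorter one. *Hspa1a* and *Hspb1*, each well above background in 1 cell, and *Hspd1*, *Hspe1* and *Hsph1*, well above background in all 8 cells, all held the shorter one. Its upstream sequence is shown for *Hspa1a*, at chr17:34972157-34972406 on the minus strand, with the element in capitals:
Hspa1a: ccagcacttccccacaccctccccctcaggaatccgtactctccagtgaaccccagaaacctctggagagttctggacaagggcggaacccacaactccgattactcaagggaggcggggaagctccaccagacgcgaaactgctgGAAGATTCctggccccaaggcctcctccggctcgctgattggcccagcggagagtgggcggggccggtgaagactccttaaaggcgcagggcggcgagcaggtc

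The mitochondrial chaperonin genes were dimmest in the same KO cell. Hsp60, from *Hspd1*, is the chamber and Hsp10, from *Hspe1*, its lid, and the genes lie head to head with a shared start region. RefSeq also has a second *Hspd1* start, past the *Hspe1* start, with its upstream bases at chr1:55088244-55088493. Given here are the 215 bases between the other *Hspd1* start and the *Hspe1* start, chr1:55087933-55088147. They run on the plus strand from *Hspd1* to *Hspe1*, and capitals mark the heat shock elements, which overlap:
Hspd1-Hspe1: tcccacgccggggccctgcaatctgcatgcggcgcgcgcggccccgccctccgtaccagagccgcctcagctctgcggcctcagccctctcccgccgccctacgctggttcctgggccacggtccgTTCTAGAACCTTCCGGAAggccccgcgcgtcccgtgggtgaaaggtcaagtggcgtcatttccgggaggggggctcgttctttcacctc

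*Hspd1* read 13.05, 12.45, 13.11 and 12.66 across WT cells 1 to 4, against 6.21, 13.77, 14.39 and 13.10 in KO cells 1 to 4. KO cell 1 stood far below the other 7 cells, and KO cells 2 and 3 lay above all WT cells. The difference was -0.95 (SD 2.70) with KO cell 1 and 0.93 without it.

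*Hspe1* read 11.80, 12.64, 13.54 and 14.10 in WT cells and 7.70, 10.05, 14.92 and 14.70 in KO cells. KO cells 1 and 2 lay below all WT cells and KO cells 3 and 4 above them. The difference of -1.18 (SD 2.62) was 0.21 without KO cell 1, and all 3 *Hspe1* probes had the same direction. Across the 8 cells the pair had a Pearson r of 0.75 and a Spearman rho of 0.48, and an r of 0.04 without KO cell 1. The array annotation places both chosen probes away from chromosome 1, on chromosomes 12 and 5, so that copies elsewhere cannot be told apart from the genes.

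All 7 detected members of the mitochondrion list read lower in KO cells, with a median of -0.97, and 2 of them, *Dnaja3* and *Dnajc19*, by at least 5-fold. Of all 20270 detected genes 6481 read lower and 3.27% were at least 5-fold lower, with a median of 0.00. *Hspa9*, the mitochondrial Hsp70 mortalin, read 5.64, 5.64, 10.61 and 8.52 in WT cells and 6.99, 5.64, 7.85 and 8.90 in KO cells, a difference of -0.26 (SD 1.97). The sign of *Hspa9* turned without WT cell 3 (0.74), WT cell 4 (0.05) or KO cell 2 (0.31). The shared direction of the 7 genes thus rests on single cells. It also rests on the choice of list, which was made by hand. *Dnajc30*, a mitochondrial gene left off it, differed by 0.92 (SD 2.4).

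*Dnaja3* gave the clearest split between genotypes. It encodes Tid1, the J-domain protein of mitochondrial Hsp70. WT cells 1 to 4 read 8.71, 7.30, 11.65 and 8.99, all well above background, while all 4 KO cells lay at the floor and none was well above background. With the scaling and floor used here its level was at least 11.4-fold lower in KO cells. The difference of -3.52 (SD 1.29) was -4.14 without WT cell 2, -2.69 without WT cell 3 and -1.60 with a floor of 200. No other probe of the gene is on the array. *Dnaja3* is on a gene list that the authors chose from these same cells, so that its direction is no independent evidence. *Dnajc19*, a subunit of the mitochondrial import motor, read 5.64, 11.74, 11.76 and 10.64 in WT cells and 5.64, 5.64, 6.86 and 12.31 in KO cells. The difference was -2.34 (SD 3.05), it was under 5-fold without any 1 cell other than WT cell 1 (-3.77) or KO cell 4 (-3.90), and the other 2 probes of *Dnajc19* had the opposite direction. *Dnajc19*, *Hspa14* and *Hspa12b* are named because of their values.

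**Figure D3:**
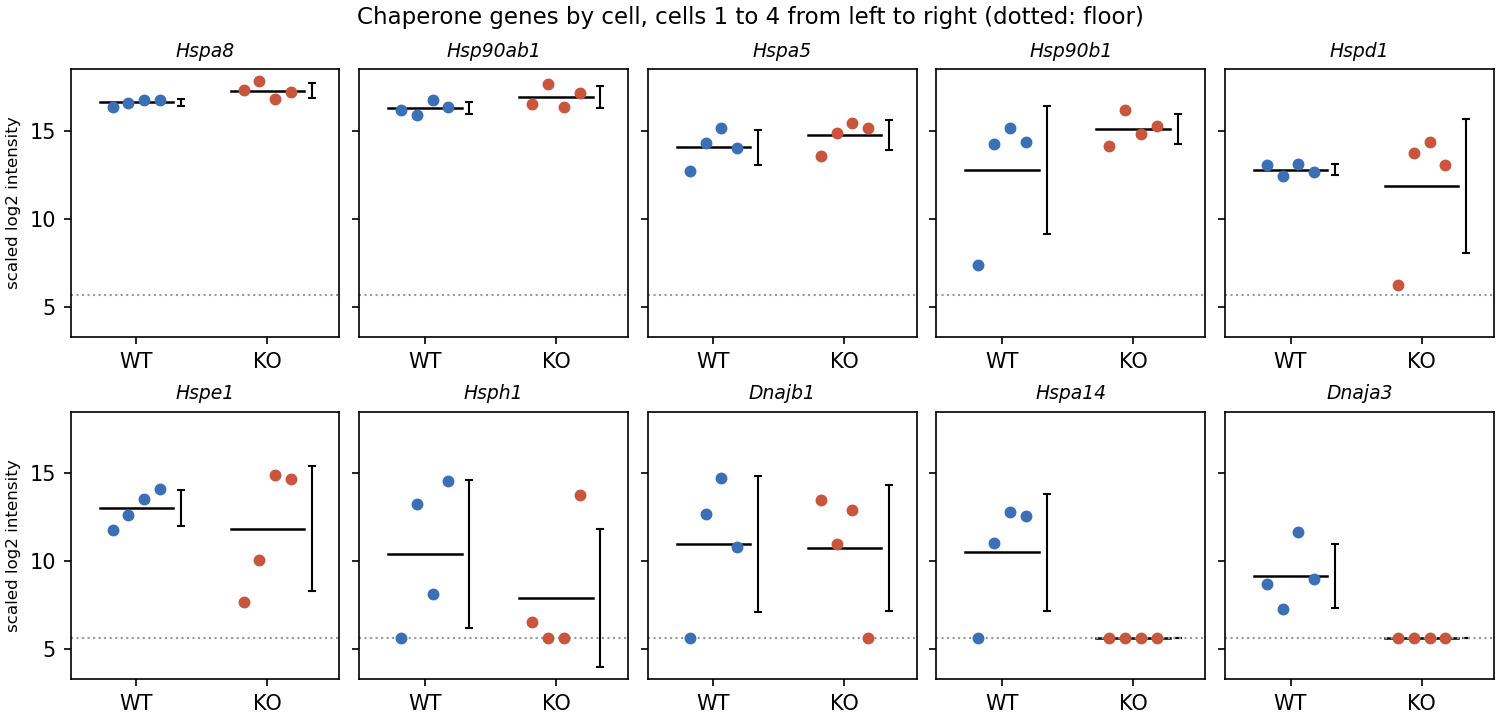
Scaled log2 intensity of 10 chaperone genes in WT (blue) and KO (red) cells, 1 dot per cell with the mean as a line and the SD of 4 cells as a bar; the dotted line is the floor, and panels share an axis but different genes are not comparable. *Hspa8* has no overlap between genotypes with a narrow gap, *Dnaja3* and *Hspa14* are at the floor in all KO cells, and *Hspd1* has 1 low KO cell.

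*Hspa14*, a cytosolic Hsp70-like protein of the ribosome-associated complex, had the largest difference of the 83 genes. It read 5.64, 11.05, 12.82 and 12.55 in WT cells 1 to 4, well above background in 3 of them, and was at the floor and not well above background in all 4 KO cells. WT cell 1 overlapped with the KO cells. With the scaling and floor used here its mean level was 29.3-fold lower in KO cells. WT cell 1 lay at the floor too, so that this fold is not a lower bound. The difference of -4.87 (SD 2.36) was -6.49 without WT cell 1, -4.10 without WT cell 3 and -4.19 without WT cell 4. It was -4.78 with normexp and -3.37 with a floor of 200. The J-domain partner of *Hspa14* in that complex, *Dnajc2*, overlapped between genotypes, with 5.64, 5.64, 10.57 and 6.85 in WT cells and 6.57, 5.64, 5.64 and 7.69 in KO cells, a difference of -0.79 (SD 1.79). *Hspa12b*, an Hsp70 relative known from endothelial cells, read 10.78 in WT cell 3 and 10.72 in WT cell 4 and no more than 5.66 in the other 6 cells. Its difference of -2.55 (SD 2.08) was -3.40 without WT cell 1 or 2, and -1.69 and -1.71, under 5-fold, without WT cell 3 and WT cell 4. *Hspa4*, a second Hsp110, ranged over 7.23 log2 units, from 6.59 in KO cell 1 to 13.82 in KO cell 3, and differed by -0.73 (SD 2.96) between genotypes. Its sign turned without WT cell 4 (0.17) or KO cell 1 (0.44), another of its 3 probes differed by 1.52 (SD 3.68), and the mean of its probes differed by 0.26.

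In the ER, the Hsp70 and the Hsp90 were lowest in the same cell, WT cell 1. *Hspa5* encodes BiP, the ER Hsp70 and a main target of the unfolded protein response, and *Hsp90b1* encodes Grp94, the ER Hsp90. The ER stress element, searched on both strands as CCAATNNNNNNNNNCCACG, lay in 3 member windows (3.45%), at *Hspa5*, *Hsp90b1* and *Dnajc3*, beside 0.119% of all windows. Both upstream sequences are shown with their matches in capitals, *Hspa5* from chr2:34771840-34772089 on the plus strand and *Hsp90b1* from chr10:86705445-86705694 on the minus strand:
Hspa5: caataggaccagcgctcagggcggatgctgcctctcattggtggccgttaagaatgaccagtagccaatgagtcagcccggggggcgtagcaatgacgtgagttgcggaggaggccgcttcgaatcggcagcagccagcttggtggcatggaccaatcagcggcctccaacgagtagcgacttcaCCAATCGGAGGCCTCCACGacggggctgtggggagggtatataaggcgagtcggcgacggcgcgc
Hsp90b1: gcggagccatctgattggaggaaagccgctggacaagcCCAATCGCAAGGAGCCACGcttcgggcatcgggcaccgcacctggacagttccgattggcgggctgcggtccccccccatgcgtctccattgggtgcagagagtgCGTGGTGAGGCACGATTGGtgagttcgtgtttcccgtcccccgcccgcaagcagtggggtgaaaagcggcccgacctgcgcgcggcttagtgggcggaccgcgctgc

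*Hspa5* read 12.76, 14.33, 15.16 and 14.05 across WT cells 1 to 4, against 13.58, 14.91, 15.49 and 15.21 in KO cells 1 to 4. The genotypes overlapped, and the difference of 0.72 was below the SD of 0.92. *Hsp90b1* read 7.36, 14.27, 15.21 and 14.37 in WT cells and 14.18, 16.21, 14.86 and 15.29 in KO cells. WT cell 1 alone stood far below the rest, and the genotypes overlapped in the other cells. The difference of 2.34 (SD 2.65) was 0.52 without WT cell 1, 1.98 without KO cell 2 and 2.28 without KO cell 4, all under 5-fold, and 3.14 without WT cell 3. Over the 8 cells *Hspa5* and *Hsp90b1* had a Pearson r of 0.81 and a Spearman rho of 0.76. WT cell 1, the lowest for both genes, enters both values, and neither was taken without it.

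Of the 8 members on an ER list made by hand, 7 were detected. Their median difference was 0.66, with 4 of them higher in KO cells and 3 lower. The list is not complete, and its median depends on the choice of genes. *Dnajb14*, *Dnajc14*, *Dnajc18* and *Dnajc25*, ER membrane genes left off it, differed by -0.30, 0.29, -1.72 and -0.75. The J-domain partners of BiP were detected in fewer cells than BiP. *Dnajb11*, which brings unfolded proteins to BiP, read 5.64, 11.99, 7.51 and 11.04 in WT cells and 5.64, 5.64, 11.67 and 12.77 in KO cells, a difference of -0.12 (SD 3.43). *Dnajb9* was above the floor in WT cell 2, at 5.67, and in KO cell 2, at 8.31. *Dnajc10*, an ER protein that also reduces disulfides, read 8.44 and 11.09 in WT cells 2 and 3 and lay at the floor in the other 6 cells, although its probe was well above background in all 4 WT cells and 1 KO cell. Its difference of -2.06 (SD 1.85) was -0.93 without WT cell 3 and -2.74, past 5-fold, without WT cell 1 or WT cell 4. *Dnajc3* was detected in no cell.

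The cytosolic chaperonin had a median difference of 1.32, the highest of the families with all 8 cells. Without WT cell 1 it was 0.41, below the 0.52 of the Hsp90 genes. This ring of 8 kinds of subunit, called CCT or TRiC, folds actin, tubulin and other proteins. All 8 subunit genes, *Tcp1* and *Cct2* to *Cct8* with *Cct6a*, were detected, 7 of them in every cell, while *Cct6b* and *Cct8l1*, named alike, were detected in none. Of the 8, 7 were higher in KO cells and *Cct8* was lower, where of all 20270 detected genes 8058 were higher and 6481 lower.

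**Figure D4:**
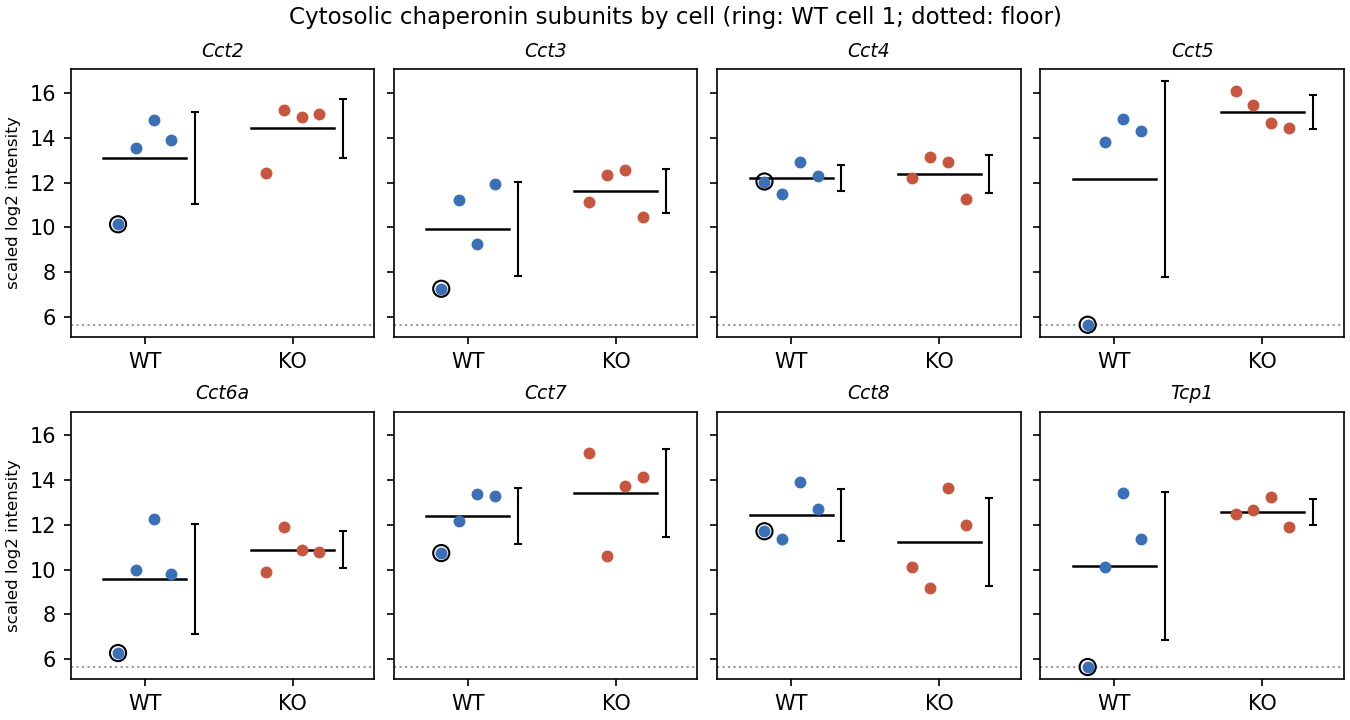
Scaled log2 intensity of the 8 detected cytosolic chaperonin genes in WT (blue) and KO (red) cells, 1 dot per cell with cells 1 to 4 from left to right, the mean as a line and the SD of 4 cells as a bar; the ring marks WT cell 1 and the dotted line the floor. WT cell 1 is the lowest of the 8 cells in 5 panels and at the floor for *Cct5* and *Tcp1*.

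*Cct5* read 5.64, 13.82, 14.85 and 14.33 across WT cells 1 to 4, against 16.10, 15.47, 14.66 and 14.44 in KO cells 1 to 4. Only WT cell 1 was at the floor, where its probe was still well above background, and the difference was 3.00 (SD 3.13) with it and 0.83 without it. Left out singly, WT cell 3 gave 3.90 and WT cell 4 gave 3.72. *Tcp1* read 5.64, 10.14, 13.45 and 11.38 in WT cells and 12.48, 12.67, 13.27 and 11.90 in KO cells. Its difference of 2.43 (SD 2.37) was 0.93 without WT cell 1 and 2.2 without KO cell 3, both under 5-fold, and 3.53 without WT cell 3.

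The remaining subunits differed by under 5-fold. *Cct3* differed by 1.72 (SD 1.65), *Cct2* by 1.32 (SD 1.73), *Cct6a* by 1.31 (SD 1.84), *Cct7* by 1.03 (SD 1.65), *Cct4* by 0.20 (SD 0.72) and *Cct8* by -1.20 (SD 1.62). WT cell 1 lay below the mean of 8 cells for all 8 subunits, with a median deviation of -3.57. The other 7 cells had median deviations from -0.36 in WT cell 2 to 1.39 in KO cell 2. Without WT cell 1 the same 7 subunits read higher in KO cells, with a family median of 0.41, but *Cct4* by 0.16, *Cct6a* by 0.21 and *Cct2* by 0.34 only. With all 8 cells the median over all genes above the floor in every cell was 0.27, which moved with the scaling. Cells were left out under the main scaling alone, so that the direction of these small differences is not settled. WT cell 1 also had the fewest probes well above background, and the part of its depth in these values was not tested.

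Over the 28 pairs of subunit genes the median Pearson r across 8 cells was 0.37, from -0.19 to 0.94, and it was 0.20 without WT cell 1. The median over the 231 pairs of the 22 chaperone genes detected in every cell was 0.11, and over all pairs of genes detected in every cell and not always at the floor 0.12, or 0.15 without WT cell 1, close to the 0.20 of the subunits. These correlations share arrays and scaling and are given as a description. *Cct4* was the steadiest subunit, with values from 11.28 in KO cell 4 to 13.14 in KO cell 2.

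The J-domain genes are the largest family. Of 45 genes, 29 were detected and 4 were detected in every cell (*Dnajb1*, *Dnajb14*, *Dnajc5* and *Dnajc14*). The family's median difference was -0.12, with 10 genes higher in KO cells, 16 lower and 3 at the floor. *Dnajc5* encodes the cysteine string protein of vesicles, and it read 13.73, 12.98, 12.62 and 13.15 in WT cells and 14.57, 13.89, 13.87 and 13.69 in KO cells. WT cell 1 exceeded KO cell 4 alone, and the difference of 0.89 was above the SD of 0.43. The genotypes also overlapped under all 4 other scalings, though not with normexp background correction. The size of the *Dnajc5* difference under these was not read, and for *Hspa8* quantile normalization took 0.68 to 0.01. The other 2 *Dnajc5* probes were each well above background in 1 cell and at the floor in 7, and give no direction to set beside it.

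*Dnajc8*, a nuclear protein bound to splicing factors, read 5.64, 5.64, 9.80 and 10.83 in WT cells and 11.17, 11.92, 12.64 and 5.64 in KO cells. KO cell 4 was at the floor with WT cells 1 and 2, and the difference was 2.36 (SD 2.97), with both other probes in the same direction. It ranged from 1.58 to 3.93 when any 1 cell was left out and was under 5-fold without WT cell 1, WT cell 2, KO cell 1, KO cell 2 or KO cell 3. *Dnaja1* and *Dnaja2* encode general cytosolic partners of Hsc70. *Dnaja1* read 5.64, 13.28, 12.76 and 13.96 in WT cells and 11.07, 9.58, 14.05 and 15.04 in KO cells, a difference of 1.02 (SD 3.28) that was -0.90 without WT cell 1. The array annotation places the chosen *Dnaja1* probe on chromosome 1, while RefSeq has the gene on chromosome 4. Such a mismatch was found for 7 of 80 chaperone genes with both positions (8.75%), beside 2.28% of all genes, and the others were *Hspa8*, *Hspd1*, *Hspe1*, *Hspb1*, *Dnajb6* and *Dnajc27*.

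*Dnaja2* read 6.01, 11.22, 10.02 and 10.89 in WT cells and 5.64, 5.64, 10.72 and 7.22 in KO cells, a difference of -2.23 (SD 2.40). Its values overlapped between genotypes. It was past 5-fold without WT cell 1 (-3.41) or KO cell 3 (-3.37), and with the 75th percentile or quantile normalization, and it was -1.67 without WT cell 2. *Dnajb6*, which holds aggregating proteins, read 12.17 in WT cell 2 by the chosen probe and was at the floor elsewhere, while 2 of its 3 other probes pointed the other way. *Dnajc9*, a histone chaperone active with DNA replication, was 11.85 in WT cell 4 and, among KO cells, 9.77 in cell 4 and 6.07 in cell 1, with the other 5 cells at the floor. *Dnajc13*, an endosomal protein, read 10.56, 5.87, 6.46 and 10.14 in WT cells and 7.84, 5.64, 8.41 and 5.64 in KO cells, a difference of -1.37 (SD 2.0). Several J-domain genes were bright in 1 or 2 cells and at or near the floor in the rest. *Dnajc15*, of the mitochondrial import motor, read 14.42 in WT cell 1 and 10.55 in KO cell 4. *Dnajc1*, of the ER membrane, read 13.05 in WT cell 3 and 13.79 in KO cell 3. *Dnajc18* read 12.52 in WT cell 3, *Dnajc25* 10.18 in WT cell 2 and *Dnajc30* 11.46 in KO cell 1 and 9.57 in WT cell 2. These bright cells belonged to both genotypes, and WT cells 2 and 3 were each bright for a pair of these genes.

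*Dnajb14* and *Dnajc14* were, by contrast, dim and even, within 5.73 to 8.40 and 5.64 to 7.15 over the 8 cells. The Hspb-named *Hspbp1*, whose product releases nucleotide from Hsp70, read 5.64, 5.64, 11.55 and 12.54 in WT cells and 6.94, 5.64, 11.47 and 5.64 in KO cells, a difference of -1.42 (SD 3.28), and *Hspbap1* stayed at the floor. Of the 12 chaperone genes with several detected probes, 6 had at least 1 probe of opposite sign.

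The small heat shock genes gave little signal. Of 8 genes 5 were detected, and the median difference was 0.00. *Hspb9* was above the floor in every cell but spanned only 5.68 to 6.71, and *Hspb6* did not exceed 6.33. *Hspb11*, an intraflagellar transport gene despite its name, read 10.05 in WT cell 4 and 8.17, 12.58 and 8.17 in KO cells 2, 3 and 4, a difference of 1.89 (SD 2.57). *Hspb2*, *Hspb3* and *Hspb8* were detected in no cell, and *Hspb7*, a heart muscle gene, stayed at the floor.

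Beside the family, 37 heat shock regulators and co-chaperones and 16 genes of ER folding and the unfolded protein response were read. They lie outside it, apart from *Hspbp1* on the first list, which is also a member. Of the first list 34 were detected, with a median difference of 0.13, and 2 were higher in KO cells by 5-fold or more and 3 lower, where 3.23% and 3.27% of all detected genes were. *Bag1*, an exchange factor of Hsp70, read 11.03, 10.69, 10.03 and 11.17 in WT cells and 10.55, 15.16, 14.72 and 14.93 in KO cells. Its difference was 3.11 (SD 1.60), with KO cell 1 among the WT values, and 4.21 without KO cell 1. *Sugt1*, an Hsp90 partner, differed by 4.12 (SD 4.11) and, left out singly, each cell gave between 2.90 and 6.20.

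*Unc45a*, a myosin chaperone, differed by -3.12 (SD 2.2), or -2.28 without WT cell 3 and -4.44 without WT cell 1. *Vbp1*, a prefoldin subunit that hands proteins to CCT, differed by -2.91 (SD 1.49), or -2.25 without WT cell 3 and -3.88 without WT cell 1, and was well above background in no KO cell. *Sil1*, an exchange factor of BiP, differed by -2.52 (SD 3.57) through WT cell 1 alone, which read 15.74, and by 0.00 without it.

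All 16 ER genes were detected, with a median difference of 0.16, and with 2 higher by 5-fold or more in KO cells and 3 lower by as much, beside 3.23% and 3.27% of all detected genes. *Calr*, the ER lectin chaperone calreticulin, read 9.99, 12.17, 11.78 and 12.59 in WT cells and 14.29, 13.86, 14.71 and 14.53 in KO cells. Every KO cell lay above every WT cell, as for 1.13% of all detected genes. The difference was 2.71 (SD 0.85), or 2.17, under 5-fold, without WT cell 1. Neither *Calr* nor the other genes outside the family were examined under the other scalings or background correction. *Creld2* differed by 3.86 (SD 3.67), between 2.66 and 5.83 with any 1 cell left out. Of the transcription factor genes of the response, *Atf4*, *Xbp1* and *Atf6* had lower means in KO cells, *Atf6* through WT cell 2 alone, and *Ddit3* was at the floor in every cell. *Atf4* read 12.05, 12.84, 14.89 and 13.05 in WT cells and 10.45, 8.26, 13.92 and 7.54 in KO cells, a difference of -3.17 (SD 2.2) that was -4.46 without KO cell 3, -2.57 without KO cell 2 and -2.33 without KO cell 4. *Xbp1* differed by -2.64 (SD 3.19), between -4.44 and -1.83 with any 1 cell left out, and was under 5-fold without WT cell 2, WT cell 3, KO cell 1 or KO cell 2. *Herpud1*, an ER-degradation gene, differed by -2.88 (SD 2.40) through WT cells 1 and 3, and by -1.65 and -2.19 without each. The ER list thus held differences in both directions, *Calr* and *Creld2* up to one side and *Atf4*, *Xbp1* and *Herpud1* to the other.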

How the data were processed

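The expression of 8 single endocardium cells, 4 WT and 4 *Sox17* KO, was measured on 1-colour Agilent arrays (design 028005, mm9) after cDNA amplification. Amplification of this kind keeps mainly the 3' ends of transcripts and can lose rare ones. The cardiomyocyte arrays of the study were not analysed here. The deposited intensity values were background-subtracted and detrended by Feature Extraction 12.0.2.2 and not normalized between arrays. The other columns used are the flags and the saturation and background calls of the same deposited files.

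Outlier spots and control spots were left out, and 55295 of 55681 probes were usable on all arrays, with 0 saturated. Arrays were brought to a common 50th percentile, taken over 7570 probes that stood well above background (over 50% of spots) throughout. Then a floor of 50 and log2 were applied. Percentages of detected genes use 1 probe per gene. The SD between cells is the pooled SD within genotypes. A call is a 5-fold difference, the fold of the study's methods. Where a gene was well above background in no cell of a genotype, the fold was taken against the higher of the floor and the probe's own signal. It is a lower bound for the setting used only where no cell of the brighter genotype lay at the floor, which leaves out *Hspa14*. Genes named are 28 core members on the array, the 6 largest differences in each direction among genes detected in all 4 cells of the brighter genotype, and genes without overlap. *Hspa12b*, *Hspa14*, *Dnajc19* and others named for a role or a value lie outside this rule. The members, gene lists and rules were chosen with earlier results of these data known. Sequences and starts are from RefSeq (GRCm38.p6), with no entry used for *Hspa8*, *Hspa9*, *Hsp90aa1*, *Hsp90ab1* and 11 others.

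Alternatives changed the percentile (75th, or over all probes), set the floor first or at 10 or 200, used quantile normalization or normexp (offset 50, floor omitted), averaged a gene's probes, changed the filter on dim probes or the detection call, or left out 1 cell. The filter on genes above the floor was added after seeing the data. The number of arrays limits the precision. The steps were run on simulated arrays in which bright probes were shifted in all KO cells, with less noise than the chaperone genes had here. That run checks the computation and not how far the calls can be relied on. Python 3.11.15, pandas 2.3.3, numpy 2.4.6, R 4.3.3 and limma 3.58.1 (for normexp) were used.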

Additional observations from a re-analysis of the deposited data

Results flagged for a closer look

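Within each genotype, cells that stood apart were sought by the gap of the highest or lowest of 4 cells to the next, as a share of the range. Of 71 sets of 4 values 14 passed Dixon's limit, which independent normal values pass in about 1 in 20. These sets hold values at the floor, overlap with each other and include genes picked for their differences. That rate therefore does not apply to them, and the count is a description. In 6 of them the ratio is 1 because 3 cells lay at the floor: *Hspa1a* in KO cells (KO cell 1 high), *Hspb1* and *Dnajb6* in WT cells (WT cell 2 high), *Dnajb9* in both genotypes (cell 2 high) and *Dnajc9* in WT cells (WT cell 4 high). WT cell 1 was low for *Cct5* (0.89), *Hsp90b1* (0.88) and *Dnaja1* (0.86). KO cell 1 was low for *Cct2* (0.89) and *Hspd1* (0.84). KO cell 4 was high for *Dnajc9* (0.90) and *Hsph1* (0.89), each with 2 cells at the floor. WT cell 2 was low in the median deviation of the small heat shock genes (0.94), a median that moves by little more than the floor allows.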

How the results depend on the processing

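The median difference of all detected chaperone genes and the medians of the Hsp70 and Hsp110, J-domain and cytosolic chaperonin families stayed within 1 SD between cells of their values under all alternatives, apart from the median of all members over probes detected on all arrays, at 0.25. Several of these medians lie close to 0, and their sign was not stable. For the cytosolic chaperonin the SD is itself widened by WT cell 1, whose median deviation was -3.57. Its median fell from 1.32 to 0.41 without that cell and still counted as within 1 SD, so that this limit is a loose one. The counts moved as well. At least 5-fold higher in KO cells was 1 gene in place of 4 with the 75th percentile, the floor before scaling, the percentile over all probes, quantile normalization, normexp or a floor of 200, and 2 over probes detected on all arrays. At least 5-fold lower were, in place of 5, 3 with normexp or the mean of all probes, 9 with a floor of 10, and 1 with a floor of 200 or over probes detected on all arrays. Genes without overlap numbered, in place of 2, 1 with the 75th percentile, the floor before scaling, the percentile over all probes, quantile normalization, a floor of 200, the mean of all probes or probes detected on all arrays, and 4 with normexp or a floor of 10. The median of the Hsp90 genes was -0.0197 with quantile normalization in place of 0.62. That of the small heat shock genes was, in place of 0.00, -0.11 with the 75th percentile, -0.10 with the floor before scaling, -0.0714 with the percentile over all probes, 0.20 with normexp, 0.0791 with a floor of 10 and 0.082 over genes above the floor. The cause was not tested, apart from fewer genes entering under stricter filters.

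With 1 cell left out, the count of higher genes ran from 0 (without WT cell 1) to 6, of lower genes from 3 to 8 (without WT cell 1), of genes without overlap from 2 to 5, and the small heat shock median from 0.00 to 0.0647. Of the 20 alternatives, 16 can move a gene's value, and the 4 filters or detection calls only keep or drop it. All 9 genes past 5-fold kept their sign under the 16, and *Hspa14* stayed past 5-fold in 16, *Dnaja3* in 15, *Cct5* in 14, *Hspa12b* in 12, *Hsph1* in 9, *Tcp1* in 8, *Hsp90b1* and *Dnajc19* in 7 and *Dnajc8* in 5. Leaving out a KO cell could not move *Hspa14* or *Dnaja3*, which lay at the floor in all 4. Over probes detected on all arrays *Cct5*, *Hsp90b1* and *Hsph1* remained and the other 6 had no value. The other detection call gave 45 in place of 28 members in WT cell 1 and 47 in place of 31 in KO cell 2. No paired analysis was possible because no result comes from a test and the numbers of the cells only name them. Signal over background limits genes at the floor, for which a difference is a bound or not seen.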
